A study of Homo sapiens with 6 samples.

Results

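The mitochondrial genome transcripts were the 37 genes that GENCODE places on chromosome M (all with symbols that begin MT-), found by their Ensembl identifiers among the 58395 genes of the raw count table. They comprised 13 mRNAs, 2 rRNAs and 22 tRNAs. Counts came from MDA-MB-231, an established human cell line from an invasive, triple-negative breast adenocarcinoma, transfected either with a non-targeting siRNA (siCTR) or with siCRP2#a, an siRNA against CSRP2, which encodes the actin-crosslinking protein CRP2. Each group held 3 libraries made from poly(A)-selected RNA, and no other agent or allele was given. Cells were harvested 65 h after transfection according to the sample labels, and at a slightly later time in the study's methods. A single siRNA sequence was sequenced against 1 control, so an effect of CSRP2 loss and an effect of that siRNA on other transcripts cannot be told apart. The study describes the libraries as biological replicates. Each column of the table carries 1 of 3 codes (0412, 0611 or 1311), and every code occurs once in siCTR and once in siCRP2. The labels do not say what the codes mean or which replicate number each belongs to.

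Library totals ranged from 17336798 to 39115778 counts. CSRP2 was at 13.7, 11.7 and 11.4 CPM (counts relative to the library total, corrected by edgeR's TMM factor) in the siCTR libraries (codes 0412, 0611 and 1311, the order used throughout) and at 2.17, 1.78 and 1.89 CPM in siCRP2, a log2 change of -2.66 (SE 0.178, adjusted p = 2.4e-08 by edgeR's quasi-likelihood test). Epithelial and mesenchymal markers were both present, as is known of this line. KRT8, an epithelial keratin, averaged 1025 CPM in siCTR and 1006 CPM in siCRP2, VIM, a mesenchymal filament, averaged 1782 and 1625 CPM, and the receptor genes ESR1 and PGR had 4 and 0 counts in all 6 libraries together. Of the 6 epithelial markers CDH1 was called higher in siCRP2 (17.4 to 33.2 CPM, log2 0.94, adjusted p = 0.00065 by edgeR), and with the column code as a block KRT7 was also higher and EPCAM and KRT19 lower. Of the 4 mesenchymal markers CDH2 was called higher (0.979 to 2.50 CPM, log2 1.31, adjusted p = 0.0027 by edgeR), and with the block FN1 was lower. Summed leukocyte markers reached at most 0.798 CPM in any library. The 3 endothelial markers summed to 9.76 to 22.0 CPM in siCTR and 5.08 to 7.42 CPM in siCRP2, nearly all of it PECAM1, with CDH5 at 8 counts and VWF at 52 counts in all libraries. Their part in the results was not tested.

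The human mitochondrial genome is a small circle present in many copies per cell. Its 13 mRNAs encode core subunits of the respiratory chain and the ATP synthase, and its rRNAs and tRNAs serve the ribosomes that translate them inside the organelle. Both strands are transcribed as long polycistronic precursors by the polymerase POLRMT. The tRNAs that stand between the longer genes are cut out by RNase P and ELAC2, which frees the mRNAs and rRNAs, and most mRNAs are then given short poly(A) tails by MTPAP. Of the 37 genes, 28 are read from the heavy strand and 9 from the light strand. The light-strand genes are MT-ND6 and 8 tRNAs.

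The genome is so compact that neighbouring genes abut or overlap, which bears on how reads are counted. The pairs and gene ends that follow show it, as read from GRCh38 on chromosome M. The first is the shared stretch of MT-ATP8 and MT-ATP6, chrM:8527-8572 on the plus strand, 46 bases that belong to both genes, with the start codon of MT-ATP6 and the stop codon of MT-ATP8 in capitals. The second is the 7 bases, chrM:10760-10766 on the plus strand, shared by MT-ND4L and MT-ND4, with the start codon of MT-ND4 in capitals. The other two are the last 60 bases of MT-ND3 (chrM:10345-10404, plus strand) and of MT-CYB (chrM:15828-15887, plus strand), the mRNAs on which the knockdown comparison turns, with the lone T of their unfinished stop codon in capitals.
MT-ATP8 and MT-ATP6 overlap: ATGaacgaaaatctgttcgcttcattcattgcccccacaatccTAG
MT-ND4L and MT-ND4 overlap: ATGctaa
MT-ND3 last bases: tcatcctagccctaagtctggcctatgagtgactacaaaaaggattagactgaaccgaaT
MT-CYB last bases: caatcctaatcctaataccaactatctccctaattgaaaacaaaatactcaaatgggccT
In 6 of the 13 mRNAs (MT-ND1, MT-ND2, MT-CO3, MT-ND3, MT-ND4 and MT-CYB) the annotated gene ends in such a partial stop codon, which the poly(A) tail completes. STAR's gene counts, the kind deposited, leave out a read that overlaps more than 1 gene, so reads across these junctions add to neither gene.

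Levels per length differed widely, also among the genes of the heavy strand. They are counts over the full annotated length, though reads that overlap a neighbouring gene are left out. The order is therefore one of counted reads and not of transcript amounts, above all for short genes that abut others. MT-ATP8 was below MT-ATP6 and MT-ND4L below MT-ND4, although each pair is read from the same mRNA. MT-CO2 (complex IV) had the highest mean over the 6 libraries, 4401 CPM per kb, followed by MT-RNR2, the large rRNA, at 2845. MT-CO3, MT-ND4, MT-CO1 and MT-ATP6 followed at 2425, 2304, 2274 and 2180 CPM per kb. MT-CO3 was above MT-ND4 in all 6 libraries, whereas MT-ND4 was above MT-CO1 in only 3 and MT-CO1 above MT-ATP6 in 4. The middle of the order was held by MT-ND4L (1460), MT-ND2 (1302), MT-ND3 (1212), MT-CYB (1032) and MT-ATP8 (1013), where each neighbour was above the next in 4 or 5 of the 6 libraries, so these ranks were not separated by the spread. MT-ND1 (893), MT-ND5 (706), the small rRNA MT-RNR1 (448) and MT-ND6 (73.9) came last and kept their order in all 6. MT-RNR1 had between 9.16 and 10.1 counts for every 100 of MT-RNR2. By total level, MT-RNR2, MT-CO1, MT-ND4 and MT-CO2 ranked 3, 4, 8 and 10 among all tested genes, at mean values of 4436, 3506, 3175 and 3010 CPM, and MT-ND6 ranked 5794 at 38.8 CPM.

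**Figure D1:**
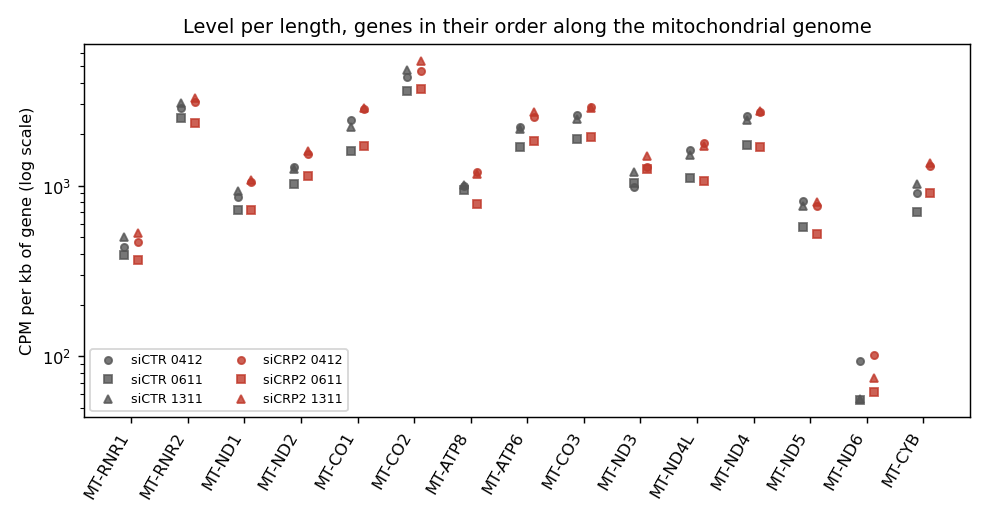
Level per length of the 13 mRNAs and 2 rRNAs in each library, in CPM per kb of annotated gene on a log scale, with genes in genome order, grey for siCTR, red for siCRP2 and 1 marker shape per column code. MT-CO2 lies highest and MT-ND6 lowest, and the squares of code 0611 lie at or near the bottom for most genes.

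Mitochondrial transcripts made up 2.44%, 1.85% and 2.41% of the library total in siCTR and 2.81%, 1.89% and 2.84% in siCRP2. The means were 2.23% ± 0.333 and 2.52% ± 0.542 (SD, n = 3 each), a log2 difference of 0.16 (two-sided exact permutation test, p = 0.5). The smallest p that 3 against 3 libraries allow is 0.1, and 29 quantities were compared in this way. The groups overlapped, because both libraries of code 0611 were low. Within the codes siCRP2 was above siCTR by 0.21, 0.03 and 0.24 on the log2 scale, higher in 3 of 3 pairs (exact sign-flip permutation, p = 0.25, the smallest that 3 pairs allow). Wilson 95% intervals on each share were at most ± 0.00757 percentage points, so counting error, which is all that they cover, was far below the spread between libraries. In bulk RNA, a difference in mitochondria per cell and a difference in RNA per mitochondrion cannot be told apart.

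The direction was the same for counts per 100 nuclear protein-coding counts (log2 difference 0.16) and for shares scaled by the TMM factor (0.14). The mRNAs alone held 1.95%, 1.43% and 1.90% of the total in siCTR and 2.27%, 1.49% and 2.29% in siCRP2. The rRNAs held 0.484%, 0.422% and 0.516% in siCTR and 0.546%, 0.397% and 0.555% in siCRP2. By complex, the log2 difference of siCRP2 from siCTR in share of total counts was 0.13 for the 7 complex I mRNAs, 0.45 for the single complex III mRNA, 0.19 for the 3 complex IV mRNAs and 0.22 for the 2 ATP synthase mRNAs, with exact permutation p-values of 0.5, 0.3, 0.5 and 0.4.

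**Figure D2:**
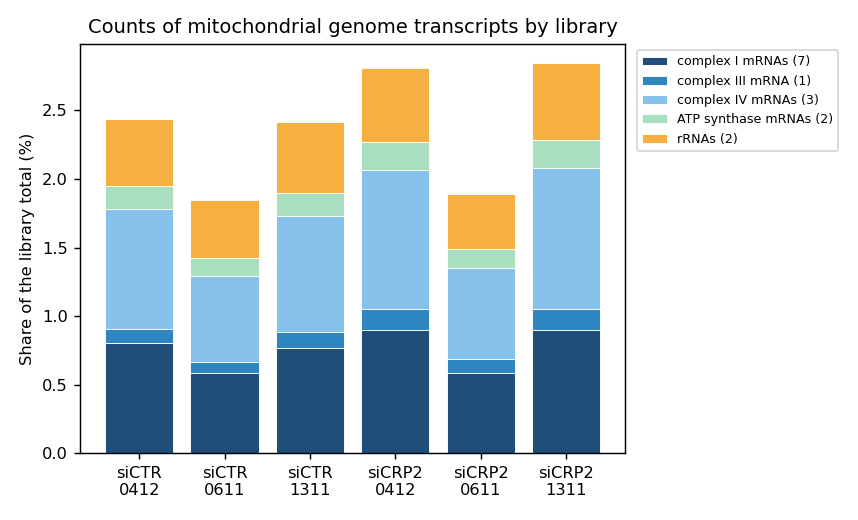
Share of each library's total counts held by the mitochondrial mRNAs, stacked by respiratory complex, and by the 2 rRNAs (%, bars from 0; tRNAs are too few to show). The 2 bars of code 0611 end at 1.85% and 1.89%, below the other 4, which end between 2.41% and 2.84%.

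Of the 37 genes, 28 passed the filter on low counts, which asked that a gene be counted in 2 or more libraries of siCTR or of siCRP2: the 15 mRNAs and rRNAs and 13 tRNAs. In the comparison of siCRP2 with siCTR by edgeR without regard to code, 1 of the 28 passed the threshold (adjusted p below 0.05), in the upward direction. Of all 23806 genes tested, 24.0% were called, 12.5% higher and 11.5% lower. Samples of the same code deviated together across genes, so the fit was repeated with the code as a block. That fit called 7 of the 28 higher (19.5% of all genes) and 0 lower (17.8% of all genes), with 0 lower also at an unadjusted p under 0.05. Among the mRNAs and rRNAs 7 of 15 were called higher with the block, against 40.4% of the 9629 genes that averaged 10 CPM or more, so the share called was near that of other well-expressed genes. In 10 of the 28, 9 of them mRNAs, siCRP2 was above siCTR in each of the 3 codes, against 28.1% of all genes and 48.4% of genes at 10 CPM or more. Only MT-ND3 had groups that did not overlap in CPM, against 37.4% of all genes. The median log2 change of the 13 mRNAs was 0.20, and 0.18 with the block, beside -0.02 over all genes in both fits.

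Complex I, the NADH dehydrogenase, receives 7 subunits from this genome. MT-ND3 (chrM:10059-10404, plus strand, ENSG00000198840), whose product lies in the membrane arm near the quinone site, was at 342, 360 and 417 CPM in siCTR and 447, 435 and 516 CPM in siCRP2. Every siCRP2 library was above every siCTR library, and the fold was 1.25 (log2 0.32, SE 0.0978, adjusted p = 0.0227 by edgeR; with the block adjusted p = 1.8e-06). The unblocked call was lost when siCRP2 0611, siCRP2 1311, siCTR 0412 or siCTR 0611 was left out (adjusted p by edgeR 0.067, 0.246, 0.070 and 0.109) and when both libraries of code 0611 were (0.222).

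MT-ND2, a proton-pumping subunit, was at 1332, 1071 and 1299 CPM in siCTR and 1594, 1184 and 1658 CPM in siCRP2. The groups overlapped only through code 0611, and the gene was called with the block (log2 0.25, SE 0.0642, adjusted p = 0.00036 by edgeR) but not without it (adjusted p = 0.183). MT-ND1, which contributes to the quinone-binding region, was at 818, 684 and 884 CPM in siCTR and 1009, 693 and 1036 CPM in siCRP2. It too was called only with the block (log2 0.18, SE 0.0637, adjusted p = 0.012 by edgeR, against 0.442), and its siCRP2 library of code 0611 was barely above its control.

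MT-ND4, MT-ND4L and MT-ND5, the other membrane-arm subunits on the heavy strand, were called in neither fit. MT-ND4 was at 3523, 2377 and 3329 CPM in siCTR and 3723, 2328 and 3767 CPM in siCRP2, a log2 change of 0.08 with the block (SE 0.0653). MT-ND4L, which is read from the same mRNA as MT-ND4, was at 478, 328 and 447 CPM in siCTR and 525, 314 and 509 CPM in siCRP2 (log2 0.09 with the block, SE 0.0630). MT-ND5 was at 1474, 1043 and 1385 CPM in siCTR and 1374, 944 and 1452 CPM in siCRP2. It was the only one of the 13 mRNAs with a negative estimate, a log2 change of -0.06 with the block (SE 0.0641, adjusted p = 0.54 by edgeR), and was below its control in codes 0412 and 0611 and above it in 1311.

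MT-ND6 (chrM:14149-14673, minus strand) is the only mRNA read from the light strand, and its transcript carries little or no poly(A) tail. It was at 49.3, 28.9 and 29.5 CPM in siCTR and 53.2, 32.4 and 39.4 CPM in siCRP2, with 497 counts in its lowest library. It was above its control in all 3 codes and was called with the block (log2 0.23, SE 0.0790, adjusted p = 0.011 by edgeR) but not without it (adjusted p = 0.693). Set against the 12 heavy-strand mRNAs of the same library, MT-ND6 held 0.253%, 0.201% and 0.154% of their counts in siCTR and 0.242%, 0.216% and 0.172% in siCRP2 (log2 difference 0.07, exact permutation p = 0.8). This ratio fell in the same order of codes in both groups, from 0412 over 0611 to 1311. Histone mRNAs, which are also made without a poly(A) tail, went the other way: 64 histone genes held 0.00821%, 0.0132% and 0.0139% of counts in siCTR and 0.00934%, 0.0135% and 0.0135% in siCRP2. Whether selection of tailed RNA differed between the codes was not tested.

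Complex III receives only cytochrome b. Its mRNA MT-CYB (chrM:14747-15887, plus strand, ENSG00000198727) was at 1038, 801 and 1163 CPM in siCTR and 1480, 1030 and 1556 CPM in siCRP2. Each siCRP2 library was above its control of the same code, by 0.51, 0.36 and 0.42 on the log2 scale, while the groups overlapped through the low siCRP2 library of code 0611. The fold with the block was 1.35 (log2 0.43, SE 0.0641, adjusted p = 1.5e-10 by edgeR), the largest estimate among the 15 mRNAs and rRNAs. Without the block the log2 change was 0.44 (SE 0.195) and was not called (adjusted p = 0.17).

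The 3 complex IV mRNAs encode the catalytic core of cytochrome c oxidase. MT-CO1 was at 3754, 2467 and 3422 CPM in siCTR and 4360, 2650 and 4383 CPM in siCRP2, and was called with the block (log2 0.23, SE 0.0655, adjusted p = 0.0021 by edgeR) but not without it (0.596). MT-CO2, the subunit that accepts electrons from cytochrome c, was at 2980, 2441 and 3237 CPM in siCTR and 3209, 2518 and 3678 CPM in siCRP2 (log2 0.11 with the block, adjusted p = 0.19 by edgeR). MT-CO3 was at 2022, 1464 and 1916 CPM in siCTR and 2271, 1514 and 2220 CPM in siCRP2 (log2 0.14 with the block, adjusted p = 0.069 by edgeR). MT-CO2 and MT-CO3 were above their controls in all 3 codes but were called in neither fit.

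The ATP synthase receives 2 subunits, both of its membrane part. MT-ATP6 was at 1509, 1147 and 1454 CPM in siCTR and 1709, 1239 and 1850 CPM in siCRP2, and was called with the block (log2 0.21, SE 0.0643, adjusted p = 0.0032 by edgeR) but not without it (0.366). MT-ATP8, on the same mRNA, was at 205, 194 and 207 CPM in siCTR and 247, 163 and 242 CPM in siCRP2, and was called in neither fit. In code 0611 it was lower than its control by 0.26 on the log2 scale, whereas MT-ATP6 was higher by 0.11. The counts of MT-ATP8 come from the part of the gene outside the overlap printed above, so differences between these neighbours are uncertain.

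**Figure D3:**
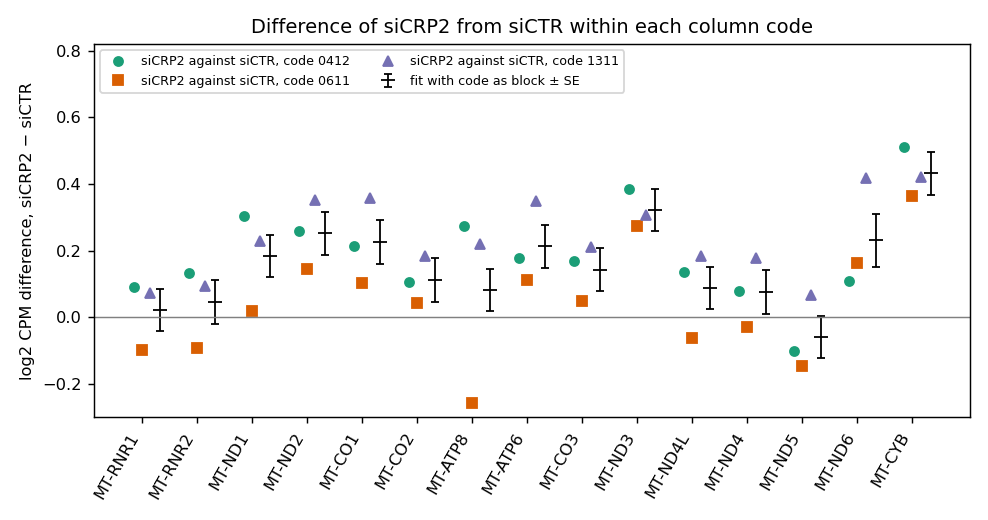
Difference in log2 CPM between siCRP2 and siCTR within each column code (green circle 0412, orange square 0611, purple triangle 1311) for the 13 mRNAs and 2 rRNAs in genome order, with the estimate ± SE of the edgeR fit that has the code as a block in black. That SE leans on a spread shared across genes and does not show a gene's own spread between codes. MT-CYB and MT-ND3 lie highest in that fit at 0.43 and 0.32, and the 0611 difference is the lowest of the 3 for 14 of the 15 genes, all but MT-ND6.

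Neither rRNA was called between the groups in either fit. MT-RNR1 was at 417, 373 and 478 CPM in siCTR and 444, 348 and 502 CPM in siCRP2, a log2 change of 0.02 with the block (SE 0.0630, adjusted p = 0.84 by edgeR). MT-RNR2 was at 4423, 3890 and 4742 CPM in siCTR and 4852, 3652 and 5057 CPM in siCRP2, a log2 change of 0.05 with the block (SE 0.0659, adjusted p = 0.67 by edgeR). As a share of mitochondrial counts the rRNAs held 19.9%, 22.8% and 21.4% in siCTR and 19.4%, 21.0% and 19.5% in siCRP2. The share was lower in siCRP2 in all 3 codes, with a log2 difference of -0.10 (exact permutation p = 0.2). Mature mitochondrial rRNAs carry at most very short tails, so their counts in poly(A)-selected libraries do not measure their amount in the cell.

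Dividing each mRNA by the 13 together takes out how much mitochondrial mRNA a library held. This scale was chosen after the values had been seen. MT-CYB made up 5.31%, 5.56% and 6.06% of the mRNA counts in siCTR and 6.73%, 6.85% and 6.79% in siCRP2, and MT-ND5 made up 7.55%, 7.24% and 7.22% in siCTR and 6.25%, 6.28% and 6.34% in siCRP2. For both, the groups did not overlap. The log2 differences were 0.27 and -0.22, each with an exact permutation p of 0.1, the smallest this design allows. They were the only 2 of the 13 without overlap, and scaled in the same way 18.8% of all genes had groups that did not overlap. MT-CYB and MT-ND5 are close together on the genome, with MT-ND6 and MT-TE, both on the other strand, between them. They had the highest and lowest log2 difference of the 13 on this scale, so the gap in their ratio follows from picking them and is not separate support. For every 100 counts of MT-ND5 there were 70.4, 76.8 and 83.9 counts of MT-CYB in siCTR and 108, 109 and 107 in siCRP2. The siCRP2 ratios lay within 2 counts of each other, whereas the siCTR ratios spread over more than 13. MT-ND3, by contrast, made up 1.75%, 2.50% and 2.17% in siCTR and 2.03%, 2.89% and 2.25% in siCRP2, so its groups overlapped once the total was taken out. MT-CO1, the most counted mRNA, ranged from 17.1% to 19.8% over both groups.

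**Figure D4:**
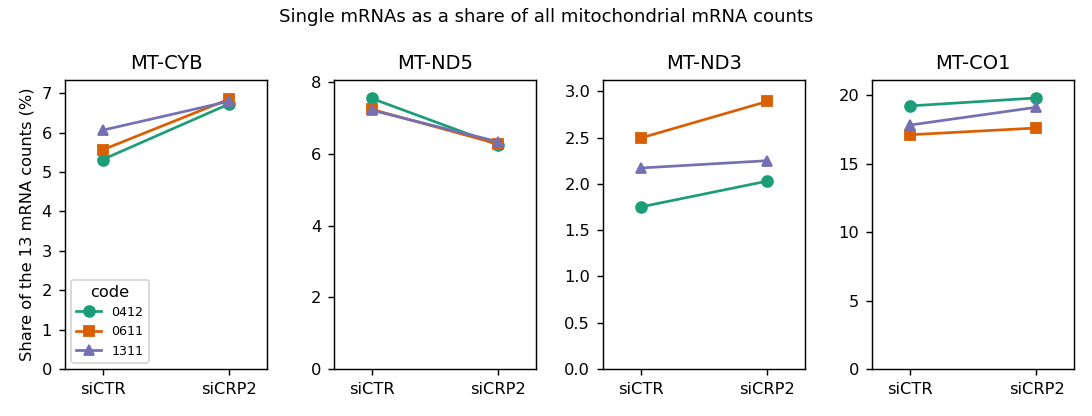
Share of the counts of the 13 mitochondrial mRNAs held by MT-CYB, MT-ND5, MT-ND3 and MT-CO1 (%, axes from 0), with 1 line per column code from its siCTR to its siCRP2 library. MT-CYB went from 5.31-6.06% to 6.73-6.85% and MT-ND5 from 7.22-7.55% to 6.25-6.34%, while the lines of the other 2 mRNAs overlap between groups.

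Few reads were counted for the tRNAs, with 68 to 176 counts per library and 665 in all. Reads that overlap more than 1 gene are not counted, so these values do not show how much tRNA sequence the libraries held. Light-strand tRNAs held 462 of these counts (69.5%), although they are only 8 of the 22. The 2 tRNAs with at least 10 counts in every library were both on the light strand: MT-TP, the proline tRNA at chrM:15956-16023, and MT-TQ, the glutamine tRNA at chrM:4329-4400. Their genes are printed as the tRNA reads, from the minus strand of GRCh38, with the anticodon in capitals.
MT-TP: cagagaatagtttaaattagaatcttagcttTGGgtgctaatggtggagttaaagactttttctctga
MT-TQ: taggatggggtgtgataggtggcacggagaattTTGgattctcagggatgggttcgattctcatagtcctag
MT-TP had 32, 22 and 28 counts in siCTR and 42, 18 and 57 in siCRP2, and MT-TQ had 36, 18 and 20 in siCTR and 19, 16 and 22 in siCRP2. MT-TQ was lower relative to library size in all 3 codes (log2 -0.60, SE 0.339, adjusted p = 0.23 by edgeR), which did not pass the test, and 0 of the 13 tested tRNAs were called in either comparison. The count was also 0 in both comparisons at an unadjusted p under 0.05 and with DESeq2. The tRNAs together held 0.0212%, 0.0262% and 0.0180% of mitochondrial counts in siCTR and 0.0213%, 0.0168% and 0.0158% in siCRP2 (log2 difference -0.27, exact permutation p = 0.3).

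Which tRNAs had counts followed their neighbours. Of the 22, 10 have a gene of the same strand on both sides, and these held 9 counts in all: 8 of them (MT-TL1, MT-TK, MT-TG, MT-TR, MT-TH, MT-TS2, MT-TL2 and MT-TC) had 0 in every library, MT-TN had 1 and MT-TV had 8. The other 12, which border a gene of the other strand or the end of the gene array, held 656 counts, with 8 to 199 each. As sampling alone, a count of 0 allows up to 3 counts per library, or 0.0768 to 0.175 CPM. This sets no upper limit on the level of a tRNA, because reads that also overlap a neighbouring gene are left out. The study's methods describe stranded libraries but do not name the strand setting with which the reads were counted. Whether the counts of the light-strand genes include reads of the opposite strand of the precursor was not tested.

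More mitochondrial mRNAs and rRNAs were called between the 3 column codes than between the groups. With group in the model, edgeR's test of the codes called all 15 mRNAs and rRNAs and 0 of the 13 tested tRNAs, 15 of 28, against 14.9% of all genes and 28.0% of genes averaging 10 CPM or more. The adjusted p was 0.014 for MT-ND3 and at most 0.00015 for each of the other 14, down to 1.3e-15 for MT-CO1 and MT-ND4L. Like those of the blocked fit, these p-values lean on a spread shared across genes, not on each gene's own spread. Most of the 15 genes fell together in code 0611, so their calls are not 15 separate results. Code 0611 was the lowest of the 3 in both groups for 15 of the 28 tested members, 14 of them mRNAs and rRNAs, against 11.3% of all genes. Without siCRP2 1311 the codes called 9 of the 28, and without siCRP2 0611 they called 10. The median log2 difference of the 13 mRNAs was -0.45 between 0611 and 0412 and -0.47 between 0611 and 1311, where the medians of all genes were -0.0022 and -0.0034.

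The genes differed in how far they fell in code 0611. Relative to 0412, the log2 difference was -0.66 for MT-CO1, -0.64 for MT-ND4L, -0.62 for MT-ND4, -0.45 for MT-CYB, -0.32 for MT-CO2, -0.30 for MT-RNR2 and -0.26 for MT-RNR1. MT-ND3 was the exception, at 0.02 relative to 0412 and -0.23 relative to 1311. MT-ND6 had a pattern of its own: it was high in 0412 and low in both other codes, at -0.74 for 0611 and -0.58 for 1311 relative to 0412. The depth of code 0611 differed between the groups: its total of 21472983 counts in siCRP2 lay between those of the other 2 codes, and its 17336798 in siCTR was the lowest.

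**Figure D5:**
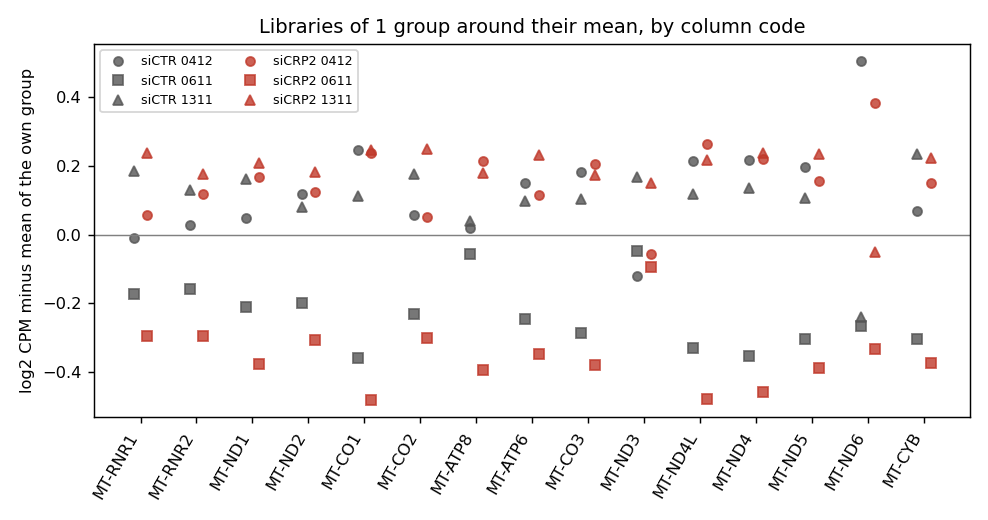
Each library's log2 CPM minus the mean of its own group of 3 for the 13 mRNAs and 2 rRNAs in genome order, grey for siCTR and red for siCRP2, with circles for code 0412, squares for 0611 and triangles for 1311. The squares lie lowest in both groups for 14 of the 15 genes, with MT-ND3 the exception, and MT-ND6 has its circles high.

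Almost all proteins that copy, transcribe and process this genome are encoded in the nucleus. Of 20 genes for mitochondrial transcription and DNA replication, 9 were called higher in siCRP2 and 1 lower by edgeR, and 12 and 1 with the block, with a median log2 change of 0.29. For comparison, 12.5% of all genes were called higher and 19.5% with the block, and among the 9629 genes averaging 10 CPM or more, which most of the genes in these lists do, 26.9% were higher and 17.5% lower, and 40.4% and 26.4% with the block. These shares are the background for each of the nuclear lists below, and no list was tested against them. TFAM, which packages mitochondrial DNA and helps POLRMT start at the promoters, was at 88.8, 86.0 and 80.0 CPM in siCTR and 119, 106 and 105 CPM in siCRP2 (log2 0.37, adjusted p = 0.0044 by edgeR). TOP1MT, the mitochondrial topoisomerase, rose by 0.90, the helicase-nuclease DNA2, which also acts in the nucleus, by 0.95, and MTERF3, of the mitochondrial terminator family, by 0.52. LIG3, a DNA ligase of both compartments, fell by 0.55. POLRMT itself averaged 29.1 CPM in siCTR and 28.5 in siCRP2, and POLG, the replicative polymerase, 105.6 and 105.8 CPM, and neither was called.

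Of 42 tested genes for mitochondrial RNA processing, modification and decay, 17 were called higher and 3 lower, and 24 and 4 with the block, with a median log2 change of 0.27, beside the 26.9% and 40.4% higher among genes at 10 CPM or more. HSD17B10, a subunit of the mitochondrial RNase P, averaged 40.2 CPM in siCTR and 71.2 CPM in siCRP2 (log2 0.82). RPUSD4, a pseudouridine synthase that acts on the large rRNA, rose by 0.63, SUPV3L1, the helicase of the RNA-degrading complex, by 0.46, and HINT2, a mitochondrial nucleotide hydrolase, by 0.60. LRPPRC, which binds mitochondrial mRNAs and keeps them stable, was at 210, 220 and 221 CPM in siCTR and 264, 299 and 284 CPM in siCRP2 (log2 0.38, adjusted p = 0.0026 by edgeR), and the poly(A) polymerase MTPAP rose by 0.50. The 3 that fell were ERAL1, an assembly factor of the small ribosomal subunit (-0.83), NGRN, needed for the large rRNA (-0.92), and the tRNA modifier TRIT1 (-0.43). LRPPRC, MTPAP, POLRMT and POLG are named for their roles and were chosen after their values had been seen.

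The 12 nuclear regulators of mitochondrial biogenesis had 0 called higher by edgeR (1 at an unadjusted p under 0.05, 0 with DESeq2) and 3 lower: TFE3 (log2 -0.53), YY1 (-0.24) and ESRRG, which had only 14 counts in all. With the block 1 was higher, PPRC1, a coactivator related to PGC-1alpha (log2 0.26, adjusted p = 0.0007 by edgeR), and 5 were lower, the same 3 with PPARGC1A and with PERM1, which had 21 counts in all (adjusted p = 0.046 by edgeR). The median log2 change of the list was 0.00 in both fits. PPARGC1A, the coactivator PGC-1alpha, was at 5.33, 12.5 and 18.0 CPM in siCTR and 4.44, 5.73 and 9.55 CPM in siCRP2. It was below its control in all 3 codes and was called lower with the block (log2 -0.82, adjusted p = 1.4e-10 by edgeR) but not without it (adjusted p = 0.387). The codes called 3 of these 12, PPARGC1A, ESRRA and GABPA, and none of them was lowest in code 0611 in both groups. PPARGC1A, PPRC1, PERM1, ESRRA and GABPA are named for these counts and were chosen after their values had been seen.

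The nuclear subunits of the same complexes allow a comparison with the mitochondrial ones. Of 76 tested, 11 were called higher and 2 lower by edgeR, and 30 and 6 with the block, with a median log2 change of 0.12. Without the block 12.5% of all genes and 26.9% of genes at 10 CPM or more were called higher. With it these shares were 19.5% and 40.4%. For complex I, 5 of 37 rose and 1 fell, and 13 and 3 with the block, among them NDUFA12 (0.55), an accessory subunit, upwards and NDUFS1 (-0.34), the largest iron-sulfur subunit, downwards. For complex III, 1 of 9 rose, UQCRH, the hinge subunit, from 101, 108 and 101 CPM in siCTR to 126, 143 and 130 CPM in siCRP2 (log2 0.36). With the block 4 of the 9 were higher, UQCRH, UQCRC2, CYC1 and UQCR10, and UQCR11 was lower. For complex IV, 3 of 12 rose, NDUFA4 (0.39), COX4I1 (0.31) and COX5A (0.28), and 5 with the block. For the ATP synthase 2 of 18 rose and 1 fell, and 8 and 2 with the block. The codes called 2 of the 76 nuclear subunits, and their median difference between 0611 and 0412 was 0.08, against -0.45 for the 13 mitochondrial mRNAs.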

How the data were processed

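The authors aligned paired-end reads of poly(A)-selected libraries to GRCh38 with STAR and deposited its raw counts per gene. The study's methods name a stranded library preparation, but not the aligner's version, the annotation or the strand setting of the counts. An unnamed text column was not used. The 37 members were found by Ensembl identifier in GENCODE release 44, in which 57754 of the 58395 genes had an entry. The 23806 genes counted in 2 or more of the 3 libraries of either group were scaled by TMM and tested with edgeR 4.0.16 (R 4.3.3, robust quasi-likelihood test, Benjamini-Hochberg adjustment over all genes tested, called under 0.05). Libraries differed by 12.4 to 48.3 chi-square units per degree of freedom, so none was a duplicate. Deviations from group means over 9629 genes correlated at 0.735, 0.479 and 0.759 between libraries of the same code and at most at 0.122 otherwise. The codes were therefore treated as pairs, and the blocked fit, with 2 residual degrees of freedom, is given beside the members and list counts whose calls it changes. Its SEs and p-values lean on a spread shared across genes, not on each gene's own spread between pairs. Its SEs were 0.0630 to 0.0659 for all heavy-strand mRNAs and rRNAs, while the differences within codes of MT-ATP8 ran from -0.26 to 0.27. Shares and ratios were compared by two-sided exact permutation of log2 values with SciPy 1.17.1. Named genes were all mRNAs and rRNAs, tRNAs with at least 10 counts in each library, and up to 4 called genes each way per list with the smallest p. Genes named outside this rule are said to be so in the text. The members and lists were chosen with earlier results of these data known. Where replicates share a culture, p-values measure only the spread between libraries. Alternatives were DESeq2 1.42.0, edgeR's exact test, other scalings and filters, a fold of at least 1.5, and leaving out each library. The tests were run on simulated data first.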

Additional observations from a re-analysis of the deposited data

How the results depend on the processing

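The number of members called between siCRP2 and siCTR rests on how the codes are handled. It was 1 (MT-ND3) as reported, and also with edgeR's exact test, with RLE factors, without TMM and with the members left out of the scaling. It was 2 with DESeq2 and 2 without a filter (MT-ND3 and MT-CYB in both), 0 with filterByExpr, where MT-ND3 reached an adjusted p of 0.067, and 0 at a fold of at least 1.5. The replicate block by column code gave 7. Leaving out both libraries of code 0611, an alternative chosen after seeing the data, gave 0, and 6 with the block. Leaving out 1 library in turn gave 0 to 2 (0 without siCRP2 1311, siCTR 0412 or siCTR 0611, and 2, MT-ND2 and MT-CYB, without siCRP2 0611), and 9 to 15 for the code test, 9 without siCRP2 1311. Genes called in all were 5722, 8873 with the block and 2119 without code 0611. The cause was not tested.

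Of single genes, values not called without the block changed sign with 1 library left out. The log2 changes then ran from -0.039 to 0.22 for MT-CO2, -0.0085 to 0.24 for MT-ATP8, -0.042 to 0.27 for MT-ND4L, -0.066 to 0.25 for MT-ND4, -0.20 to 0.088 for MT-ND5, -0.010 to 0.51 for MT-ND6, -0.12 to 0.13 for MT-RNR1, -0.061 to 0.16 for MT-RNR2 and -0.11 to 0.47 for MT-TP. The ratio of MT-ND6 to heavy-strand mRNAs ran from -0.12 to 0.24. MT-RNR1 was at -0.018 with filterByExpr. Others kept their sign but moved by over 1.5 times. MT-ND1 ran from 0.069 (without siCRP2 1311) to 0.33, MT-ND2 from 0.14 (without siCRP2 1311) to 0.37 and MT-ATP6 from 0.078 (without siCRP2 1311) to 0.35. MT-CO1 ran from 0.082 (without siCTR 0611) to 0.41 and MT-CO3 from 0.024 (without siCTR 0611) to 0.29. Each of these highest values was without siCRP2 0611. MT-TQ ran from -0.83 (without siCRP2 0412) to -0.39 (without siCTR 0412). The log2 difference in mitochondrial share ran from 0.028 (without siCTR 0611) to 0.35 (without siCRP2 0611), in rRNA share from -0.15 (without siCTR 0412) to -0.046 (without siCTR 0611) and in tRNA share from -0.40 (without siCTR 1311) to -0.13 (without siCTR 0611), so their direction was kept but not their size. The tRNAs had at most 176 counts per library.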

Other observations

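Parts of the mitochondrial genome have been copied into nuclear chromosomes. The table lists 404 such copies by symbol, of which 37 had a count, and 5 of them held 97.4% of their counts. On chromosome 1, MTATP6P1 had 32743 counts in all libraries, MTCO1P12 had 7835, MTND2P28 had 5628 and MTCO2P12 had 653, and MTND4P12 on chromosome 5 had 569. Together the copies held 0.0322%, 0.0269% and 0.0341% of the library total in siCTR and 0.0394%, 0.0258% and 0.0399% in siCRP2. Their sum was lowest in code 0611 in both groups, as the mitochondrial share was. Between codes edgeR called 3 of the 24 tested copies, against 14.9% of all genes: MTATP6P1 (adjusted p = 9.8e-09), MTCO1P12 and MTND2P28. In siCTR, MTCO2P12 was highest in code 0611 (3.12, 6.87 and 5.17 CPM) and MTND4P12 was lowest in code 0412 (3.79, 4.19 and 4.39 CPM). Reads of a copy and of its original are hard to separate where the sequences are nearly identical, and STAR's counts leave out reads that map to both. The levels of the mitochondrial genes are uncertain to that extent, and not only those of MT-ND2, MT-CO1, MT-CO2, MT-ATP6 and MT-ND4. Reads left out are missing from the copy too, so the counts of the copies do not show which genes lost reads.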
